A study of Mus musculus with 37 samples.

Results

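The genes described here are 33 genes of cholesterol and fatty acid synthesis and of their control by the sterol regulatory element-binding proteins (SREBPs). They are a fixed list of symbols, drawn up with earlier results of these data known though with no threshold on measured values, and each of the 33 symbols matched exactly 1 of the 35885 gene rows of the deposited table. They comprise 7 enzymes of the early mevalonate pathway, 12 enzymes from squalene to cholesterol, 7 genes of the SREBP machinery, 3 genes of intracellular sterol transport and 4 genes of fatty acid synthesis.

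Cells make cholesterol from acetyl-CoA through mevalonate, farnesyl diphosphate, squalene and lanosterol. SREBPs are transcription factors held in the endoplasmic reticulum membrane with their escort SCAP, and INSIG proteins retain this complex there when sterols are plentiful. When membrane sterol is low the complex moves to the Golgi apparatus, where the site 1 and site 2 proteases release the active factor, which raises transcription of sterol and fatty acid synthesis genes; in blood-forming tissue, dividing cells need this lipid supply for new membranes.

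The study used C57BL/6N mice of wild-type genotype and compared cells flushed from femoral bone marrow with spleen under social defeat stress, in which a mouse meets an aggressive opponent. Controls were not defeated; stressed mice were defeated 1, 4 or 10 times at 1 defeat per day, and a further group had 10 defeats followed by 1 week of rest. The marrow groups held 3 control libraries, 4 after 1 defeat, 3 after 4 defeats, 5 after 10 defeats and 4 after rest; the spleen groups held 4, 2, 2, 6 and 4. The sources used here give neither age nor sex, and all 10 groups are mixtures of cell types.

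All values are the authors' abundances per gene, scaled per library. Most low values fell on steps that depend on transcript length, so levels are read as per length. Changes are given on the log2 scale of value + 1, in many cases with a standard error. They were tested with limma and adjusted over all genes tested, and "rose", "fell" and "called" refer to an adjusted p under 0.05. Adding 1 before the logarithm understates changes of low genes. None of the 33 genes was at 0 in any of the 37 libraries, and all 33 passed the filter on low values in both tissues.

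Depth estimated from the steps was 3.62 to 44.5 M reads per library. Some members rested on few reads in their lowest library, an estimated 3.7 for Acaca, 4.32 for Hsd17b7, 5.24 for Scap and 11 for Fasn. The labelled tissues carried their markers: in controls the summed level of 8 mature B cell genes was 2496 to 2694 in spleen and 716 to 1010 in marrow, and that of 6 early neutrophil granule genes was 5.52 to 14.5 in spleen and 1412 to 1720 in marrow. A set of 5 spleen libraries stood apart, D6, D7, D9 and D10 after 10 defeats and D2 after rest. In these the deviation from the spleen control mean had a slope of -0.28 to -0.23 on the log2 scale per doubling of transcript length, against -0.17 to 0.09 in the other 13 spleen libraries, and haemoglobin transcripts made up 45.4% to 58.8% of their totals against 1.74% to 39.8%. Spleen results after 10 defeats and after rest are given with all libraries, and beside them without these 5.

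In unstressed mice the 33 genes spanned a wide range of levels in both tissues. In marrow the highest control means were those of Lbr, 148 ± 10.1 (SD, n = 3), a sterol reductase that is also the lamin B receptor of the nuclear envelope, of Npc2, 57.7 ± 2.30 (SD, n = 3), a lysosomal cholesterol carrier, and of Acly, 41.3 ± 2.27 (SD, n = 3), which makes cytosolic acetyl-CoA. The lowest was Hsd17b7, a ketosteroid reductase of the pathway, at 1.57 ± 0.0578 (SD, n = 3) in marrow and 1.59 ± 0.402 (SD, n = 4) in spleen. Among regulators, Srebf2, which encodes the SREBP that mainly drives sterol synthesis, had a mean of 29.8 ± 1.08 (SD, n = 3) in marrow and 44.1 ± 7.39 (SD, n = 4) in spleen, and Srebf1, whose product mainly drives fatty acid synthesis, had 21.7 ± 1.09 (SD, n = 3) and 20.1 ± 5.41 (SD, n = 4).

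Control spleen and control marrow differed in 6 of the 33 genes. Mvk, Cyp51, Npc1 and Npc2 were higher in spleen, and Tm7sf2 and Lbr were lower, which is 12.1% and 6.06% of the members against 27.1% and 19.2% of all 14513 genes tested. Lbr read 150.3, 137 and 157 in the marrow controls and 50.8, 44.00, 54.97 and 43.2 in the spleen controls, a difference of -1.60 ± 0.31 (SE; limma adjusted p = 6.21e-05). Tm7sf2, the other sterol reductase of that step, read 6.70, 7.2 and 5.40 in marrow and 2.92, 2.85, 1.94 and 4.09 in spleen, a difference of -0.93 ± 0.26 (SE; limma adjusted p = 0.00355). Both reductases were thus lower in spleen, and neither pair of groups overlapped. Such separation was common: 9 members lay wholly higher and 5 wholly lower in spleen, beside 35.1% and 26.5% of all genes.

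Cyp51, the lanosterol demethylase, read 2.47, 3.31 and 3.58 in the marrow controls and 8.56, 6.41, 5.16 and 6.20 in the spleen controls. All 4 spleen values lay above all 3 marrow values, and the difference was 0.87 ± 0.20 (SE; limma adjusted p = 0.000433). Npc2 read 81.99, 92.4, 93.3 and 71.5, Npc1 17.7, 18.1, 15.1 and 15.9 and Mvk 6.11, 7.01, 7.09 and 5.70 in the spleen controls, against 55.1 to 59.5, 10.9 to 11.97 and 3.66 to 4.73 in marrow, with no overlap. Mvk differed by 0.57 ± 0.16 (SE; limma adjusted p = 0.00453), Npc2 by 0.54 ± 0.19 (SE; limma adjusted p = 0.0169) and Npc1 by 0.52 ± 0.20 (SE; limma adjusted p = 0.0311); Mvk was not called with quantile normalization, Npc2 not with median-ratio rescaling and Npc1 not with equal totals. With only the control groups in the fit, 14 members differed, 9 higher and 5 lower in spleen. That fit called 8222 of all genes, against 6712 in the main fit. Under quantile normalization and under median-ratio rescaling the split was 3 higher and 4 lower, beside 7025 and 6513 of all genes called.

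In bone marrow after 1 defeat limma called none of the 33 genes, beside 0% of all 12442 genes higher and 0.00804% lower. An unadjusted p under 0.05 was reached by 3 members, beside 535 of all 12442 genes. All 7 SREBP machinery genes had differences below 0, from -0.44 for Mbtps1, the site 1 protease, to -0.04 for Srebf2, with a median of -0.17 against -0.05 over all genes. Library D17 weighed on this: the median deviation of the 7 genes from the control mean was -0.53 there, and -0.02, -0.20 and -0.11 in D15, D16 and D18. Srebf1 read 25.6, 19.45, 11.3 and 25.1 and Srebf2 31.8, 34.1, 23.3 and 27.8, each lowest in D17.

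After 4 defeats 3 members rose and 3 fell in marrow. The risers were sterol pathway enzymes, Fdps, Msmo1 and Ebp, and those that fell were Dhcr7, the reductase of the final step, Mbtps1 and Acss2, a cytosolic acetyl-CoA synthetase. This is 9.09% of members in each direction, against 7.07% of all genes higher and 13% lower. With quantile normalization or median-ratio rescaling the split was 5 higher and 1 lower, and with equal totals 2 higher and none lower. These fits called 1964, 2521 and 1112 of all genes, against 2493 in the main fit. Values of 5 members lay wholly above and of 4 wholly below the controls, beside 15.4% and 28.8% of all genes.

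Fdps, the synthase that makes farnesyl diphosphate, read 28.4, 28.6 and 26.5 in the marrow controls and 45.7, 114 and 83.7 after 4 defeats. It had the largest rise of the 33 genes at this time, 1.42 ± 0.33 (SE; limma adjusted p = 0.00892), with no overlap between groups. Without library D12, its highest, the difference was 1.13 with a limma adjusted p of 0.0578. Ebp, the sterol isomerase, read 21.3, 19.1 and 22.2 in controls and 26.8, 33.2 and 32.8 after 4 defeats, a rise of 0.54 ± 0.11 (SE; limma adjusted p = 0.00395) that was also called under each of 13 alternatives. Msmo1, a methylsterol oxidase of the pathway, read 14.4, 37.3 and 21.2 after 4 defeats, and its call of 0.80 ± 0.27 (SE; limma adjusted p = 0.0433) was lost under 9 of 13 alternatives. Without D12, also its highest library, the Msmo1 difference was 0.45 with a limma adjusted p of 0.235.

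Mbtps1 read 25.3, 26.8 and 28.2 in controls and 17.2, 16.5 and 21.4 after 4 defeats, a fall with a difference of -0.53 ± 0.14 (SE; limma adjusted p = 0.0145) and no overlap. Its call was lost under 3 of 13 alternatives. Acss2 read 7.43, 6.04 and 7.79 and then 5.65, 4.58 and 4.57, a difference of -0.44 ± 0.12 (SE; limma adjusted p = 0.0186), and lost its call under 8 of 13. Dhcr7 read 6.67, 6.84 and 6.82 and then 4.95, 5.20 and 5.51, a difference of -0.32 ± 0.11 (SE; limma adjusted p = 0.0495), and lost its call under 12 of 13. The falls of Acss2 and Dhcr7 were therefore at the edge of the threshold.

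The main regulators did not pass the test after 4 defeats. Srebf2 read 24.7, 41.1 and 29.7 and Srebf1 18.2, 22.7 and 16.3, with differences of 0.06 ± 0.19 and -0.19 ± 0.22. Insig1 read 6.97, 14.3 and 7.22 and Insig2 6.61, 7.21 and 8.37, with differences of 0.07 ± 0.22 and -0.25 ± 0.25. All 4 groups overlapped with their controls. Hmgcs1 read 8.87, 19.04 and 10.98 and Sqle 4.31, 6.88 and 6.38, with differences of 0.43 ± 0.22 and 0.12 ± 0.21, and D12 held the highest value of both. Npc1 read 9.68, 12.2 and 10.5 and Fasn 12.2, 14.9 and 15.7, both with differences within 0.1 of 0.

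Markers of other cell types moved in marrow after 4 defeats as well. All 6 early granule genes rose, with a summed level of 3124 to 5543 against 1412 to 1720 in controls, and 5 of 10 mature neutrophil genes rose (105109 to 192280 against 56047 to 64944). Of 8 mature B cell genes 7 fell (67.4 to 410 against 716 to 1010), all 8 T cell genes fell (14.9 to 33.8 against 54.5 to 61.99) and 6 of 9 macrophage genes fell (181 to 337 against 363 to 476). The part of these cell types in the differences of the members after 4 defeats was not tested.

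After 10 defeats 8 of the 19 sterol enzymes rose in marrow and none fell. Of the 7 SREBP machinery genes none rose and 4 fell, Scap, Mbtps1, Srebf1 and Insig2, and the last 2 calls were lost under most alternatives; 1 of 3 transport genes rose and 2 of 4 fatty acid synthesis genes fell. In all, 9 members (27.3%) were higher and 6 (18.2%) lower, against 17.5% and 28.3% of all genes. The median difference was 0.44 for the early mevalonate enzymes, 0.18 for the squalene and sterol enzymes and -0.49 for the machinery, against -0.13 over all genes. Under quantile normalization the split was 13 higher and 3 lower, under median-ratio rescaling 11 and 3, and under equal totals 6 and 4. These fits called 5061, 5405 and 4094 of all genes, against 5694 in the main fit. None of the 19 enzymes was called lower under these scalings. The median over all genes moved from -0.13 to 0.02 under quantile normalization. Values of 10 members lay wholly above and of 7 wholly below the controls, beside 19.4% and 29.8% of all genes.

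**Figure D1:**
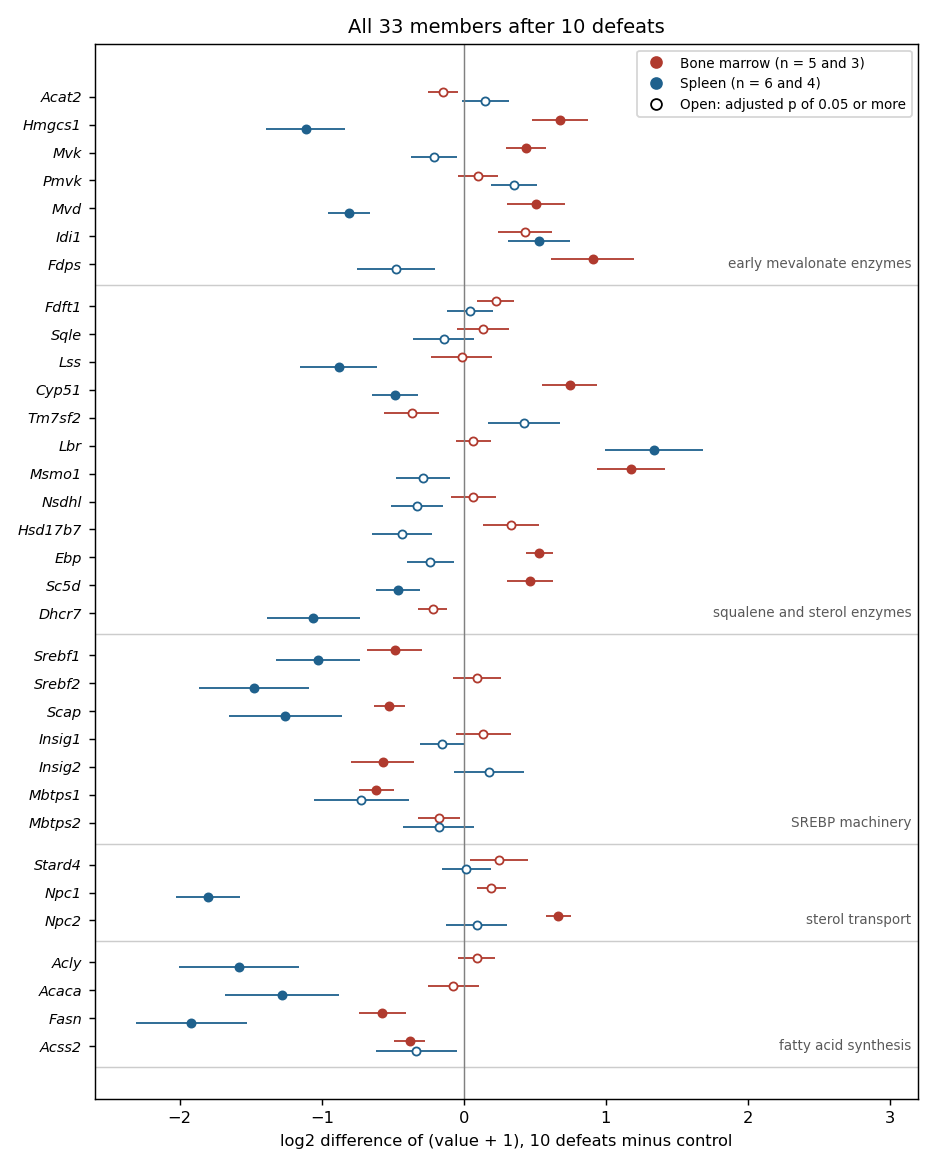
Differences after 10 defeats for all 33 members, in log2 of value + 1 (horizontal axis), with bars of 1 standard error; red is bone marrow, blue is spleen, and filled points have an adjusted p under 0.05. In marrow the filled points of the enzymes lie right of 0 and those of the SREBP machinery left of it, and in spleen 13 of the 15 filled points lie left of 0.

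The early enzymes that rose were Hmgcs1, Mvk, Mvd and Fdps. Hmgcs1, the cytosolic HMG-CoA synthase on chromosome 13, 119690379 to 119708260 (GRCm38), read 8.37, 9.71 and 8.71 in controls and 13.3, 21.8, 13.5, 14.4 and 12.7 after 10 defeats. All 5 stressed values lay above the controls, and the difference was 0.68 ± 0.20 (SE; limma adjusted p = 0.0106), or 0.55 with a limma adjusted p of 0.0254 without D6, the highest library. Fdps read 51.4, 107, 39.8, 50.5 and 37.5, a difference of 0.91 ± 0.29 (SE; limma adjusted p = 0.0186), and 0.66 without D6. Without control C4 the Fdps difference was 0.87 with a limma adjusted p of 0.0629.

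Mvk, mevalonate kinase, read 3.71, 4.73 and 3.66 in controls and 5.78, 7.29, 5.64, 5.75 and 4.77 after 10 defeats, a difference of 0.44 ± 0.14 (SE; limma adjusted p = 0.0180). Mvd, which decarboxylates mevalonate diphosphate, read 9.30, 11.4 and 11.1 in controls and 16.5, 17.8, 16.2, 12.2 and 15.2 after them, a difference of 0.51 ± 0.20 (SE; limma adjusted p = 0.0492). The stressed values of both genes lay above the controls, yet the Mvd call was lost under 11 of 15 alternatives and the Mvk call under 3. Of the other early enzymes, Idi1, an isomerase, differed by 0.43 ± 0.19, Pmvk, phosphomevalonate kinase, by 0.10 ± 0.14 and Acat2, the thiolase that makes acetoacetyl-CoA, by -0.15 ± 0.11, and none of these passed the test.

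Among the later enzymes Cyp51, Msmo1, Ebp and Sc5d rose. Msmo1 changed most: it read 11.9, 13.9 and 11.9 in controls and 25.6, 43.6, 26.98, 30.2 and 24.7 after 10 defeats, a difference of 1.18 ± 0.24 (SE; limma adjusted p = 0.00124). The lowest stressed value was well above the highest control. Cyp51 read 2.47, 3.31 and 3.58 and then 5.18, 8.49, 4.95, 6.22 and 5.05, a difference of 0.75 ± 0.19 (SE; limma adjusted p = 0.00557). Ebp read 29.2, 31.3, 28.8, 33.3 and 30.4 after 10 defeats, a narrow band above its controls, with a difference of 0.53 ± 0.09 (SE; limma adjusted p = 0.000484). Msmo1, Cyp51, Ebp and Hmgcs1 were called under each of 15 alternatives.

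Sc5d, a sterol desaturase, read 7.85, 7.91 and 7.98 in controls and 10.1, 16.9, 10.2, 10.2 and 10.3 after 10 defeats, with D6 far above the other 4. Its difference was 0.47 ± 0.16 (SE; limma adjusted p = 0.0276), and 0.33 with a limma adjusted p of 0.0604 without D6. Sqle, the squalene epoxidase that is a rate-limiting enzyme of the pathway, did not pass the test: it read 5.18, 4.49 and 6.10 in controls and 5.62, 9.63, 4.80, 6.20 and 4.09 after 10 defeats, a difference of 0.14 ± 0.18 (SE; limma adjusted p = 0.560). The remaining later enzymes that did not pass ranged from -0.37 ± 0.19 for Tm7sf2 to 0.33 ± 0.19 for Hsd17b7. They include Fdft1, squalene synthase, at 0.22, Lss, lanosterol synthase, at -0.02, Lbr at 0.07, Nsdhl, a sterol dehydrogenase, at 0.07 and Dhcr7 at -0.22.

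**Figure D2:**
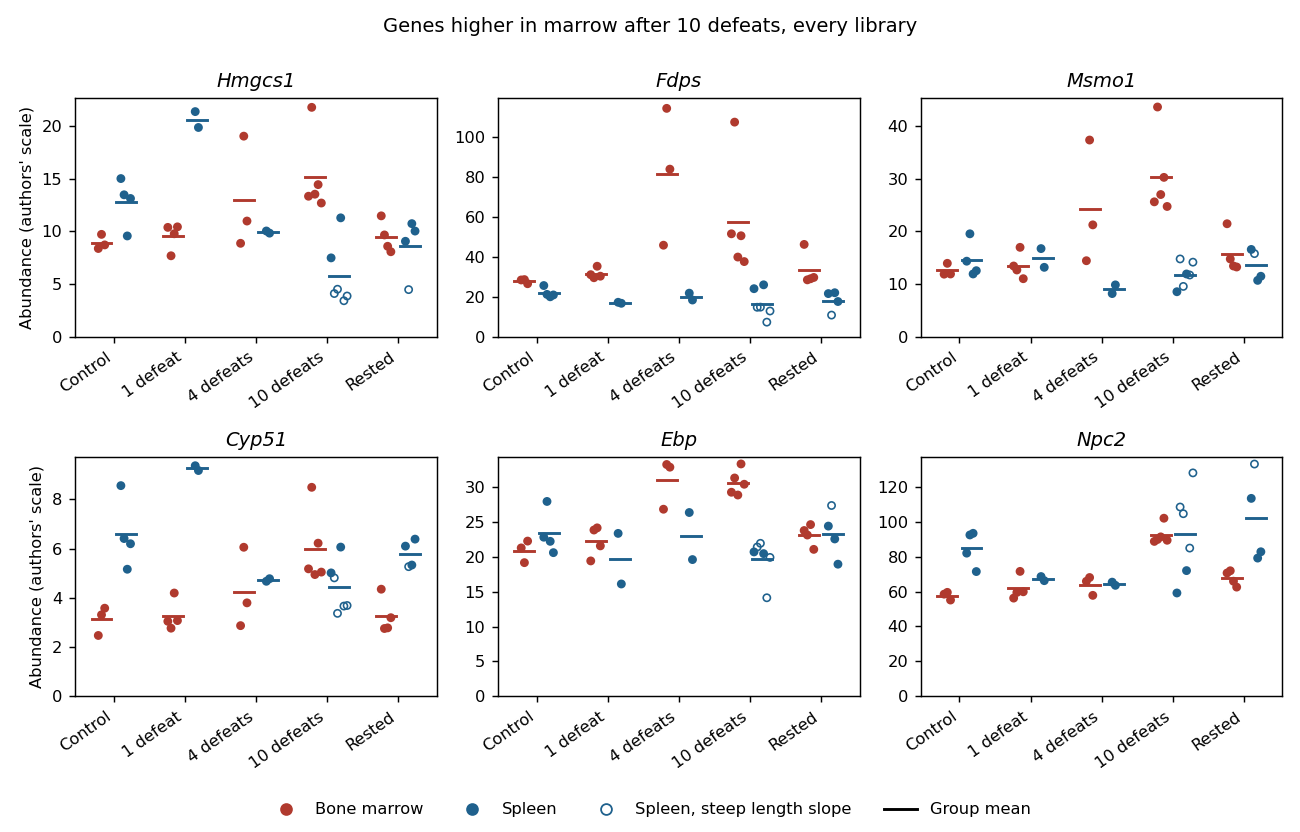
Abundance on the authors' scale (vertical axes, from 0) of 6 genes that rose in marrow after 10 defeats, in every library of the 5 groups; lines are group means and open circles the 5 spleen libraries of steep length slope. In marrow the 10-defeat points of each gene lie above the control points, and the spleen points of Hmgcs1 fall below 5 in the open circles.

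Promoter stretches are shown for Hmgcs1, Mvk and Ebp, which rose together in marrow, and for Srebf2 and Fasn, which did not rise. RefSeq promoter windows (GRCm38.p6, 250 bases before to 50 after each start) were found for 28 of the 33 genes. The stretches lie upstream of the start, outside annotated exons, and read 5′ to 3′ on the gene's strand. Capitals mark the sterol-element sequence TCACNCCAC or its shorter form TCACNCCA, and the NF-Y box CCAAT or its reverse complement.
Hmgcs1, chr13:119690101-119690325, plus strand: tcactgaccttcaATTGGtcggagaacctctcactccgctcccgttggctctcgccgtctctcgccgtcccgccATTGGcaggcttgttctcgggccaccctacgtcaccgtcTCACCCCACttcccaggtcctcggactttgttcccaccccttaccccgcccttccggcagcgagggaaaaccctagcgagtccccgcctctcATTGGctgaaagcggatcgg
Mvk, chr5:114444081-114444268, plus strand: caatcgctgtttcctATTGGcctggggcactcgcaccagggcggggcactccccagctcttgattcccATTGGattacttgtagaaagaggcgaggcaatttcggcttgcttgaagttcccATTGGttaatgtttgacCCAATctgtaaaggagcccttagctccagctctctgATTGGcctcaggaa
Ebp, chrX:8193548-8193697, minus strand: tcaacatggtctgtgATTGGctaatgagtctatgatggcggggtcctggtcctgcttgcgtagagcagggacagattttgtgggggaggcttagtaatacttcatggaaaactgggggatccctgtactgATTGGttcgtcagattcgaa
Srebf2, chr15:82147092-82147153, plus strand: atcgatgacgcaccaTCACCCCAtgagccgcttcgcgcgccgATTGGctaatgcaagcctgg
Fasn, chr11:120824587-120824652, minus strand: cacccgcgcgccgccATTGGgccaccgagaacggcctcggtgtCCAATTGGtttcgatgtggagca

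The motifs were searched on both strands of the whole windows. TCACNCCAC occurred in the window of 1 of 28 members, Hmgcs1, at 137 bases before its start, and in 1.44% of 27025 genes. The shorter TCACNCCA, which each TCACNCCAC also contains, occurred in 3 members, Hmgcs1, Msmo1 and Srebf2, and in 4.97% of genes. CCAAT occurred in 23 of 28 members and in 41.1% of genes, and GGGCGG, the core of the GC box, in 24 of 28 and in 38.2%. A match is only a match of letters in this window, and these counts were not tested.

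Of the 7 SREBP machinery genes, Scap and Mbtps1 fell under every alternative run. Scap, which encodes the escort protein, read 13.9, 13.9 and 13.4 in the marrow controls and 10.4, 8.91, 9.06, 8.87 and 8.98 after 10 defeats, a difference of -0.52 ± 0.11 (SE; limma adjusted p = 0.00136). Mbtps1 read 25.3, 26.8 and 28.2 in controls and 18.96, 14.3, 20.1, 15.6 and 17.3 after 10 defeats, a difference of -0.62 ± 0.12 (SE; limma adjusted p = 0.00104). Neither pair of groups overlapped, and the alternatives numbered 15 for each gene.

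Srebf1 read 22.9, 21.2 and 20.9 in controls and 18.2, 16.8, 13.1, 12.8 and 15.5 after 10 defeats, and Insig2, an SREBP retention factor, read 7.91, 8.57 and 10.5 in controls, then 6.25, 4.42, 4.55, 6.90 and 6.74. Their differences were -0.49 ± 0.19 (SE; limma adjusted p = 0.0478) and -0.57 ± 0.22 (SE; limma adjusted p = 0.0435). All stressed values lay below the controls, but the Srebf1 call was lost under 12 and the Insig2 call under 9 of 15 alternatives, quantile normalization and median-ratio rescaling among them. Srebf2 read 30.8, 30.1 and 28.6 in controls and 33.8, 38.1, 32.5, 27.97 and 27.8 after 10 defeats, with overlapping groups and a difference of 0.09 ± 0.17 (SE; limma adjusted p = 0.684). Insig1, the other retention factor and itself an SREBP target, read 8.22, 8.59 and 8.80 in controls, then 9.96, 14.6, 8.20, 8.57 and 7.41, a difference of 0.14 ± 0.19 (SE; limma adjusted p = 0.579). Mbtps2, the site 2 protease, differed by -0.18 ± 0.15 and did not pass.

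Of the transport genes Npc2 rose. It read 58.5, 59.5 and 55.1 in controls and 88.7, 89.8, 91.3, 102 and 89.4 after 10 defeats, a difference of 0.67 ± 0.09 (SE; limma adjusted p = 9.85e-05), the smallest p of the 33 genes. Npc1, the membrane protein that passes cholesterol out of lysosomes after Npc2, read 10.9, 10.98 and 11.97 in controls, then 12.7, 11.1, 13.5, 14.1 and 13.98, with overlapping groups and a difference of 0.19 ± 0.10 (SE; limma adjusted p = 0.131). Stard4, a cytosolic sterol carrier, differed by 0.25 ± 0.21, which did not pass.

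Fasn, fatty acid synthase, fell: it read 14.3, 16.7 and 12.3 in the marrow controls and 10.2, 10.5, 10.2, 5.95 and 10.5 after 10 defeats, a difference of -0.57 ± 0.16 (SE; limma adjusted p = 0.00992). Acss2 read 5.77, 4.54, 5.61, 4.75 and 5.33 after 10 defeats, a difference of -0.38 ± 0.11 (SE; limma adjusted p = 0.00941), and was not called with quantile normalization or median-ratio rescaling. Acly differed by 0.09 ± 0.13 and Acaca, the acetyl-CoA carboxylase, by -0.07 ± 0.18, and neither passed.

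**Figure D3:**
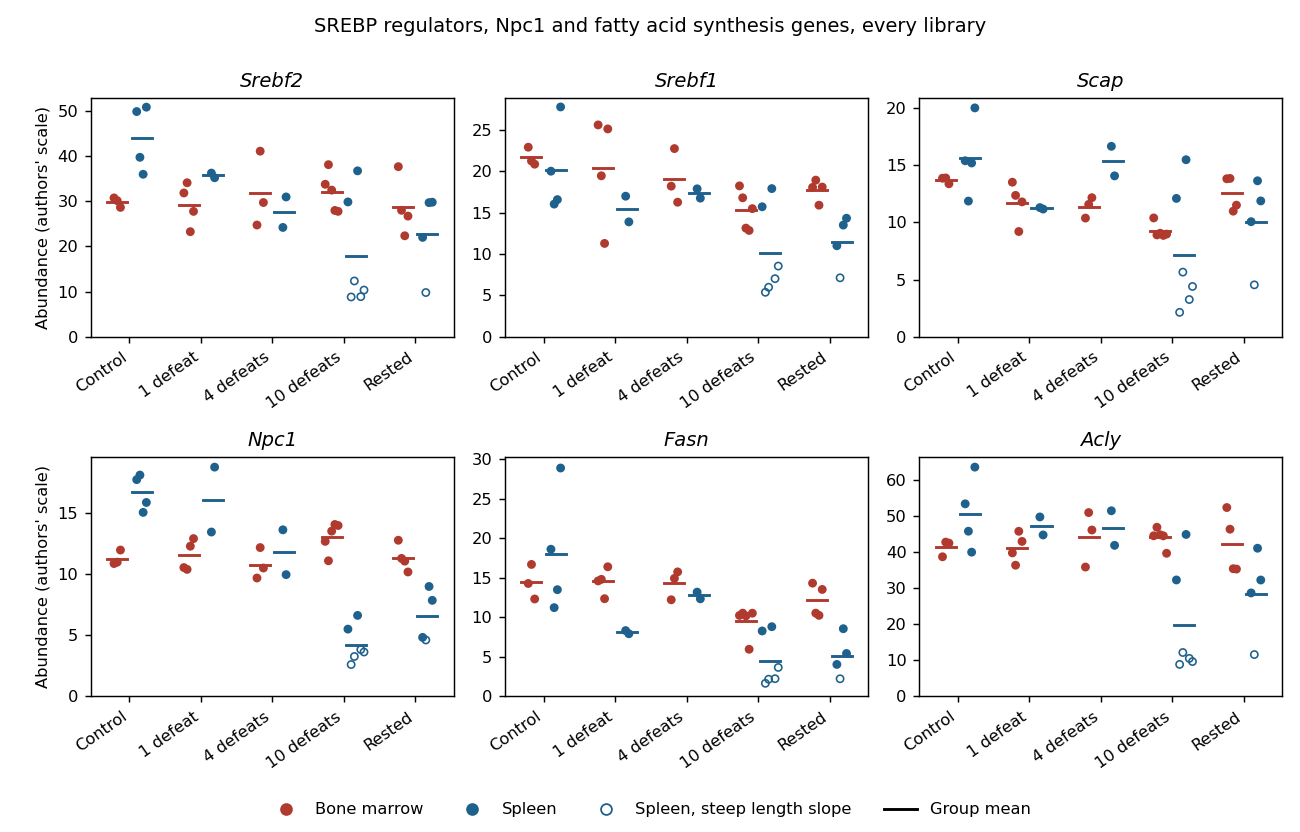
Abundance on the authors' scale (vertical axes, from 0) of 3 SREBP machinery genes, Npc1 and 2 fatty acid synthesis genes in every library; lines are group means and open circles the 5 spleen libraries of steep length slope. Scap in marrow drops from above 13 in controls to 10.4 or less after 10 defeats, and in spleen the open circles are the lowest points of Srebf2, Acly and Fasn.

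Cell type markers moved with these results in marrow after 10 defeats. All 10 mature neutrophil genes rose, with a summed level of 134590 to 252749 against 56047 to 64944 in controls, and all 6 early granule genes rose (2602 to 5921 against 1412 to 1720). Of 14 erythroid genes 10 fell (35342 to 78436 against 101194 to 131655), and all 8 mature B cell genes fell (15.8 to 200.8 against 716 to 1010). In bulk tissue fewer cells of a type and less RNA per cell cannot be told apart, and the part of these cell types in the members' differences was not tested. Of 8 genes of dividing cells none rose and 5 fell.

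Library D6 was the highest of the 5 marrow libraries after 10 defeats for 15 of the 19 enzymes. D12 was the highest of the 3 after 4 defeats for 16, and D1 the highest of the 4 rested libraries for 13. Over all 33 members D6, D12 and D1 were highest for 20, 24 and 20, and the share over all genes was not counted. The median deviation of the 19 enzymes from the control mean was 0.62 in D6, 0.57 in D12 and 0.18 in D1, against 0.04 to 0.32, -0.03 to 0.23 and -0.05 to 0.03 in the other libraries of their groups. The same libraries had the lowest share of haemoglobin transcripts of their group (11.1%, 15.2% and 16.1%) and the highest summed early granule genes (5921, 5543 and 3417). These libraries were singled out after their values were seen, and the part of cell makeup in them was not tested.

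**Figure D4:**
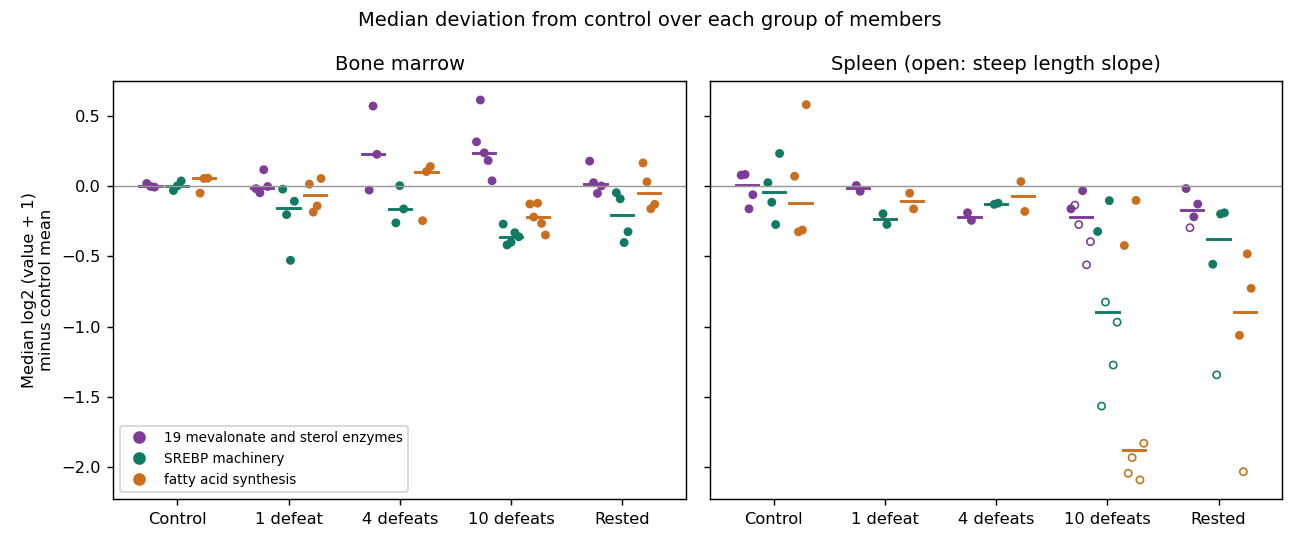
Median deviation from the control mean, in log2 of value + 1 (vertical axis), over the 19 enzymes, the 7 SREBP machinery genes and the 4 fatty acid synthesis genes, 1 point per library and a line at each group median; open circles are the 5 spleen libraries of steep length slope. In marrow after 10 defeats the enzymes lie at 0.04 to 0.62 and the machinery at -0.42 to -0.27, and in spleen the open circles of the fatty acid genes are the lowest points, down to -2.10.

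After 1 week of rest limma called no member against control in marrow, beside 0% of all genes in either direction. An unadjusted p under 0.05 was reached by 3 members, beside 1768 of all 12442 genes. No member had its highest marrow mean in the rested group, whereas 15 of the 33 had it after 10 defeats. The 15 include Srebf2, Insig1 and Sqle, which were not called after 10 defeats, and the share over all genes was not counted. Against 10 defeats, 5 members were lower after rest and 2 higher (15.2% and 6.06%), beside 7.91% and 13.8% of all genes. With equal totals 1 was lower and 3 were higher, and with quantile normalization 9 and 1. These fits called 3255 and 1963 of all genes, against 2700 in the main fit. Rested values of 6 members lay wholly below and of 2 wholly above the 10-defeat values, beside 5.39% and 12.7% of all genes. Markers differed too between rest and 10 defeats: 8 of 10 mature neutrophil genes were lower after rest (summed level 78865 to 125215 against 134590 to 252749) and 4 of 6 monocyte genes (1022 to 1657 against 1821 to 2554). All 6 megakaryocyte genes were higher (359 to 988 against 94.5 to 228), as were 6 of 8 B precursor genes (109 to 274 against 8.3 to 105) and 6 of 7 endothelial and stromal genes (101 to 196 against 31.01 to 61.3). Their part in the members' differences was not tested. This comparison and that of 10 defeats with control share the 10-defeat libraries, and all comparisons with control within a tissue share its control libraries.

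Msmo1 read 21.4, 14.8, 13.4 and 13.2 in the 4 rested libraries, below each 10-defeat value, a difference of -0.90 ± 0.22 (SE; limma adjusted p = 0.0109). Cyp51 read 4.35, 2.75, 2.78 and 3.19, a difference of -0.70 ± 0.18 (SE; limma adjusted p = 0.0126), and Ebp read 23.8, 23.1, 24.6 and 21.1, a difference of -0.39 ± 0.09 (SE; limma adjusted p = 0.00690). The rested D1 value of Msmo1 lay above its control range of 11.9 to 13.9, nearer the lowest 10-defeat value than the highest control. Hmgcs1 read 11.5, 9.66, 8.58 and 8.07, a difference of -0.61 ± 0.18 (SE; limma adjusted p = 0.0241) that was lost under 5 of 16 alternatives.

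Npc2 read 70.6, 71.9, 65.9 and 62.5 after rest, all below the 10-defeat values, with a difference of -0.44 ± 0.08 (SE; limma adjusted p = 0.00268). Scap read 13.8, 13.8, 10.99 and 11.5, above every 10-defeat value, a difference of 0.40 ± 0.10 (SE; limma adjusted p = 0.0119). Acss2 read 5.99, 6.52, 7.35 and 6.49, a difference of 0.29 ± 0.10 (SE; limma adjusted p = 0.0437) that was lost under 10 of 16 alternatives. Groups of the other regulators overlapped with 10 defeats. Srebf2 read 37.7, 28.00, 22.4 and 26.7, Srebf1 18.1, 18.9, 15.9 and 18.1, Insig1 8.25, 7.17, 6.59 and 6.62 and Insig2 7.56, 10.4, 6.24 and 4.42 after rest. Sqle read 5.41, 4.81, 4.59 and 4.16, Npc1 12.8, 11.3, 11.1 and 10.2 and Fasn 14.3, 10.5, 10.2 and 13.5, also overlapping with the 10-defeat libraries. Cyp51, Ebp and Npc2 lost their calls with equal totals, where the median over all genes was 0.26 in place of 0.09.

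The other genes of the pathway were followed through 5 further lists, and the genes named from them were picked after their values were seen. In marrow after 10 defeats, 4 of 7 tested genes of sterol uptake, esterification and the remaining enzymes rose and none fell, with a median of 0.46; over all genes 17.5% rose and 28.3% fell, with a median of -0.13. Soat1, which esterifies cholesterol for storage, differed by 0.97 ± 0.20 (limma adjusted p = 0.00132), and Scarb1, a lipoprotein receptor, by 0.46 ± 0.13 (limma adjusted p = 0.0108). Of 10 genes of the isoprenoid branch 2 rose and 4 fell, and of 10 sterol sensing and turnover genes 2 rose and 3 fell.

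Liver X receptors (LXR) answer to oxysterols and raise cholesterol export. Of 7 tested LXR and oxysterol genes 5 fell in marrow and none rose, with a median of -0.63, beside 28.3% of all genes lower and 17.5% higher. The list was not limited to LXR targets. Abca1, a cholesterol exporter, differed by -1.04 ± 0.19 (limma adjusted p = 0.000631), and Mylip, which marks lipoprotein receptors for degradation, by -1.03 ± 0.15 (limma adjusted p = 0.000144). Among 7 tested lipogenic SREBP targets 4 fell and 2 rose. Scd1, the stearoyl-CoA desaturase, differed by -2.82 ± 0.41 (limma adjusted p = 0.000181) and Gpam, which starts glycerolipid synthesis, by -1.46 ± 0.20 (limma adjusted p = 0.000124), whereas Aacs, which activates acetoacetate for lipid synthesis, differed by 0.74 ± 0.15 (limma adjusted p = 0.00141).

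In spleen limma called no member after 1 defeat or after 4 defeats, with 2 libraries in each group. Over all 13945 genes, 0.624% were higher and 0.0645% lower after 1 defeat, and 0.043% and 0% after 4. An unadjusted p under 0.05 was reached by 2 members in each comparison, beside 2104 of all genes after 1 defeat and 1314 after 4. After 1 defeat Hmgcs1 read 21.4 and 19.9 against 15.01, 13.5, 9.57 and 13.1 in controls, a difference of 0.66 ± 0.37 (SE; limma adjusted p = 0.424), and Cyp51 read 9.37 and 9.17 against 8.56, 6.41, 5.16 and 6.20, a difference of 0.46 ± 0.22 (SE; limma adjusted p = 0.338). Both genes stood above all controls in both libraries, and neither difference passed the test. Pmvk had the smallest adjusted p of the members: it read 9.78 and 9.39 against 16.1, 14.3, 18.2 and 16.8, a difference of -0.71 ± 0.22 (SE; limma adjusted p = 0.137). In all, 7 members lay wholly above and 8 wholly below the controls after 1 defeat, beside 26.3% and 16.9% of all genes. Such separation was common with 2 libraries. After 4 defeats 10 members lay wholly below and 0 wholly above the controls, beside 16.1% and 13.1% of all genes. The median over the members was then -0.18, against -0.04 over all genes. Msmo1 had their smallest adjusted p, reading 8.19 and 9.84 against 14.3, 19.5, 11.9 and 12.5 in controls (limma adjusted p = 0.443).

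After 10 defeats 13 members were lower and 2 higher in spleen (39.4% and 6.06%), beside 41.9% and 16.8% of all genes, so the share that fell was near the background. Hmgcs1, Mvd, Lss, Cyp51, Sc5d, Dhcr7, Srebf1, Srebf2, Scap, Npc1, Acly, Acaca and Fasn fell, and Idi1 and Lbr rose. Under quantile normalization the split was 9 lower and 7 higher, under median-ratio rescaling 10 and 7, and under equal totals 20 and 1. These fits called 7039, 7378 and 8263 of all genes, against 8196 in the main fit. Without the 5 steep libraries, which leaves 2 libraries against 4, only Mvd and Npc1 fell and none rose, beside 15.2% and 8.59% of all genes. The median over all genes was -0.36, and it moved to -0.85 with equal totals and 0.01 with median-ratio rescaling. With all libraries, values of 3 members lay wholly below and of 0 wholly above the controls, beside 25.8% and 10.4% of all genes.

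Npc1 carried the clearest difference. It read 17.7, 18.1, 15.1 and 15.9 in the spleen controls and 2.60 to 6.62 with a median of 3.73 in the 6 libraries after 10 defeats. The groups did not overlap, and the difference was -1.80 ± 0.22 (SE; limma adjusted p = 7.05e-05). Without the steep libraries it was -1.33 ± 0.22 (limma adjusted p = 0.00320), and D5 and D4 read 5.50 and 6.62, also below every control. Npc1 lies on chromosome 18, 12189692 to 12236400 and shares exon sequence with Rmc1 on the opposite strand; the sources used here do not say whether counting used strand.

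Mvd read 7.78, 8.24, 7.07 and 7.07 in the spleen controls and 2.91 to 5.36 with a median of 3.90 after 10 defeats, with no overlap. Its difference was -0.81 ± 0.15 (SE; limma adjusted p = 0.000688), and -0.53 ± 0.14 (limma adjusted p = 0.0217) without the steep libraries. Hmgcs1 read 15.01, 13.5, 9.57 and 13.1 and then 3.42 to 11.3 with a median of 4.30, a difference of -1.11 ± 0.28 (SE; limma adjusted p = 0.00381). Its 4 steep libraries read 3.42 to 4.51 and the other 2 read 7.48 and 11.3, and without the steep ones the difference was -0.42 ± 0.19 (limma adjusted p = 0.116). Sqle read 6.67, 6.23, 3.65 and 4.96 and then 3.25 to 7.63 with a median of 3.95, with a difference of -0.14 ± 0.21 (SE; limma adjusted p = 0.578), and 0.39 ± 0.19 (limma adjusted p = 0.148) without the steep libraries.

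Lbr rose in spleen, from 50.8, 44.00, 54.97 and 43.2 in controls to 53.99 to 252 with a median of 133 after 10 defeats. The difference was 1.34 ± 0.35 (SE; limma adjusted p = 0.00463), and 0.53 ± 0.23 (limma adjusted p = 0.103) without the steep libraries, which held the 4 highest values. Idi1 differed by 0.53 ± 0.22 (SE; limma adjusted p = 0.0496); it was -0.14 with equal totals and 0.31 without the steep libraries, neither called. Lss, Cyp51, Sc5d and Dhcr7 differed by -0.88 ± 0.27, -0.48 ± 0.16, -0.46 ± 0.15 and -1.06 ± 0.33, and by -0.17 to -0.24 with no call without the steep libraries. Cyp51 read 3.37 to 6.06 with a median of 4.25 after 10 defeats and Sc5d 5.20 to 8.37 with a median of 7.06, against 5.16 to 8.56 and 8.15 to 10.7 in controls. Msmo1, not called, read 8.54 to 14.8 with a median of 11.8 against 11.9 to 19.5.

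Srebf2 read 49.9, 39.7, 35.98 and 50.8 in the spleen controls and 8.80 to 36.7 with a median of 11.3 after 10 defeats. The 4 steep libraries read 8.80 to 12.4 and the other 2 read 29.9 and 36.7. The difference was -1.48 ± 0.39 (SE; limma adjusted p = 0.00501) with all libraries and -0.39 ± 0.19 (limma adjusted p = 0.139) without the steep ones. Srebf1 read 20.01, 16.03, 16.6 and 27.8 in controls and 5.37 to 17.9 with a median of 7.78 after 10 defeats, a difference of -1.03 ± 0.30 (SE; limma adjusted p = 0.00884) that became -0.21, and Scap differed by -1.26 ± 0.40, which became -0.16. Insig1 read 7.94 to 13.8 with a median of 9.25 after 10 defeats against 8.27 to 12.2 in controls, and Insig2 9.20 to 23.8 with a median of 13.1 against 8.90 to 14.99. Their differences of -0.15 ± 0.16 and 0.18 ± 0.24 did not pass, nor did those of -0.24 and -0.27 without the steep libraries.

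The fatty acid genes had the lowest median of the 5 role groups with all libraries, -1.43. Without the steep libraries their median was -0.26, against -0.22 over all genes, and that of the sterol transport genes was lower at -0.36. Fasn read 18.6, 11.2, 13.5 and 28.9 in the spleen controls and 1.64 to 8.80 with a median of 2.94 after 10 defeats. The groups did not overlap, with a difference of -1.92 ± 0.39 (SE; limma adjusted p = 0.00128), and -0.91 ± 0.31 (limma adjusted p = 0.0516) without the steep libraries. Acly differed by -1.58 ± 0.42 and Acaca by -1.28 ± 0.40, against -0.38 and -0.14 without the steep libraries, neither called there. In the 4 steep libraries of this group Acaca read 0.40 to 0.75, under the filter value of 1. Acss2 differed by -0.33 ± 0.29 and did not pass.

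The spleen differences of the members were lower for longer transcripts. Across the 33 genes Pearson's r between the log2 difference and the log2 length of the longest coding transcript was -0.53 (Spearman's rho -0.53) with all libraries, and -0.31 (rho -0.21) without the 5 steep ones; in marrow it was -0.33 (rho -0.27). The 17 shorter genes had a median of -0.21 and the 16 longer genes of -0.80, against -0.17 and -0.16 without the steep libraries. The points share their libraries, genes are not independent replicates, and the values are a description. With the length trend of each library removed, 15 members were lower and 1 higher. That fit called 8226 of all genes, against 8196 in the main fit. Fasn then differed by -1.29 and Npc1 by -1.47.

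**Figure D5:**
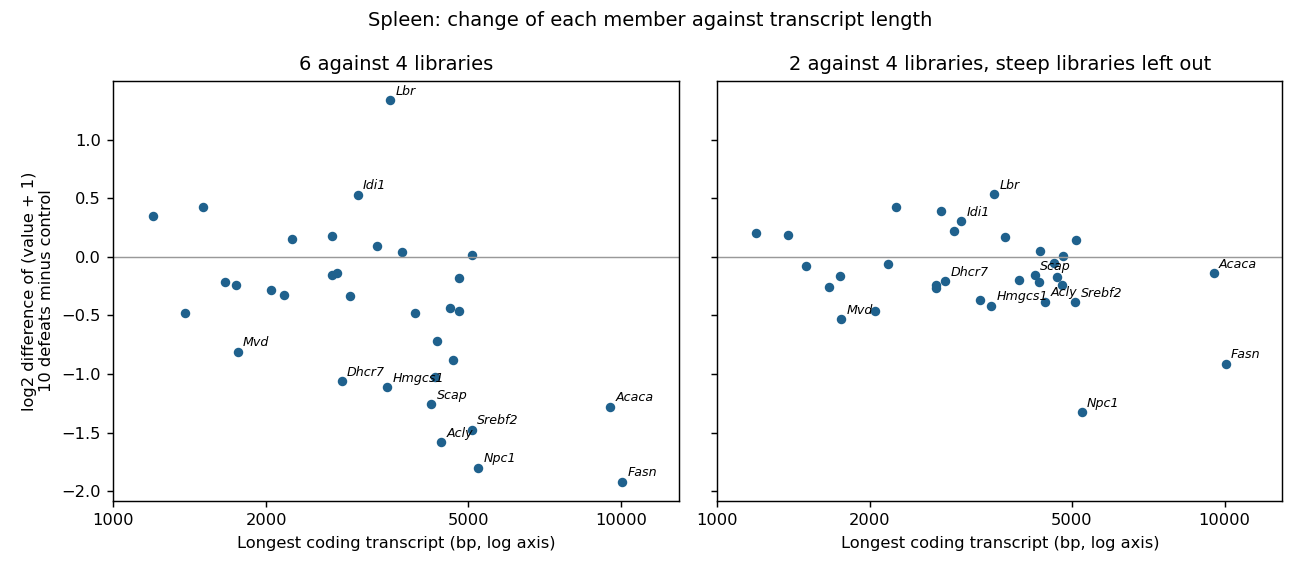
Difference of each of the 33 members in spleen after 10 defeats, in log2 of value + 1 (vertical axis), against the length of its longest coding transcript in bp (log axis), with all libraries at left and without the 5 steep libraries at right. At left the lowest points are long genes, Fasn at -1.92 and Npc1 at -1.80, and at right Npc1 at -1.33 and Fasn at -0.91 stand below the others.

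Markers moved in spleen as well after 10 defeats. All 14 erythroid genes rose, with a summed level of 23626 to 219972 against 20537 to 56258 in controls, all 6 early granule genes rose (98.5 to 1550 against 5.52 to 14.5) and 7 of 8 genes of dividing cells rose (613 to 2009 against 249 to 366). All 8 mature B cell genes (355 to 1880 against 2496 to 2694) and 7 of 8 T cell genes fell. Of 9 macrophage genes 3 fell. Without the steep libraries 10 of 14 erythroid, 5 of 6 early granule and 6 of 8 dividing-cell genes rose, and 4 of 8 mature B cell, 6 of 8 T cell and 1 of 9 macrophage genes fell. The part of these cell types in the members' differences was not tested.

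Of the further pathway lists in spleen after 10 defeats, 4 of 7 uptake and remaining sterol genes fell and none rose, with a median of -1.02, beside 41.9% of all genes lower and 16.8% higher and a median of -0.36. Without the steep libraries 2 of the 7 fell, with a median of -0.14, beside 15.2% of all genes lower and 8.59% higher and a median of -0.22. Soat1 differed by -1.09 ± 0.22 (limma adjusted p = 0.00133), and by -0.67 ± 0.17 (limma adjusted p = 0.0186) without the steep libraries, against a rise in marrow. The Soat1 difference between tissues was -2.06 ± 0.31 (limma adjusted p = 9.02e-06), and -1.64 ± 0.28 (limma adjusted p = 0.000122) without them.

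For the other lists too, 41.9% of all genes fell in spleen and 16.8% rose, or 15.2% and 8.59% without the steep libraries. Among 9 LXR and oxysterol genes 5 fell in spleen and none rose, and 3 fell without the steep libraries. Abca1 differed by -1.73 ± 0.25 (limma adjusted p = 0.000164), and by -1.15 ± 0.23 (limma adjusted p = 0.00710) without them. Among 9 lipogenic targets 7 fell and none rose, and limma called none without the steep libraries. Scd1 differed by -2.65 ± 0.64 (limma adjusted p = 0.00328), and by -0.82 ± 0.33 (limma adjusted p = 0.0889) without them. Of 10 isoprenoid genes 4 rose and 2 fell, against 2 and none without the steep libraries, and of 10 sterol sensing and turnover genes 3 rose and 3 fell, against 1 and 1.

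After 1 week of rest 2 members were lower than control in spleen, Npc1 and Fasn (6.06%), and none was higher, beside 4.24% and 3.02% of all genes. Rested values of 7 members lay wholly below and of 1 wholly above the controls, beside 18.1% and 8.93% of all genes. Npc1 read 4.82, 4.61, 8.99 and 7.85 in the rested libraries, each below every control, with a difference of -1.27 ± 0.25 (SE; limma adjusted p = 0.00902). Fasn read 4.03, 2.22, 8.55 and 5.42, also each below every control, with a difference of -1.68 ± 0.43 (SE; limma adjusted p = 0.0305) that was lost under 8 of 16 alternatives. Without the steep library D2 and the 4 steep libraries of the 10-defeat group, 5 members were lower, Npc1 (-1.14), Fasn (-1.41), Acaca (-0.96), Srebf2 (-0.68) and Srebf1 (-0.57), and Lbr (0.64) was higher, beside 11% and 5.51% of all genes.

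Srebf2 read 22.00, 9.79, 29.7 and 29.8 and Srebf1 10.99, 7.12, 13.5 and 14.3 in the rested spleens. Hmgcs1 read 9.06, 4.47, 10.7 and 10.03 and Sqle 4.02, 2.86, 4.30 and 4.54, with the lowest value of each gene in D2. Insig1 read 10.9, 9.61, 9.31 and 10.9 and Insig2 12.1, 14.04, 10.8 and 14.1, with differences from control of -0.08 ± 0.17 and -0.01 ± 0.27, and of -0.06 and -0.06 without the steep libraries, none called. Against 10 defeats limma called no member after rest (0 of 33), beside 0.272% of all genes higher and 0.294% lower. An unadjusted p under 0.05 was reached by 2 members, beside 3081 of all 13945 genes. Without library D4 of the 10-defeat group 3 members were higher. That fit called 2316 of all genes, against 79 with every library. Without the steep libraries no member was called either, beside 0.0293% of all genes higher and 0.00733% lower, in a fit of 3 rested libraries against 2. Markers moved with the rested spleens against control: 9 of 10 mature neutrophil genes and all 6 of the early granule list rose, with all libraries and without the steep ones, and 9 of 14 erythroid genes rose, or 10 without the steep ones. Their part in the members' differences was not tested.

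The difference of the 10-defeat effect between the tissues was tested directly. For 15 members (45.5%) the effect was lower in spleen than in marrow and for 1, Lbr, higher, beside 27% and 16.1% of all genes. Of the 19 enzymes 9 were lower and 1 higher, of the machinery 1 of 7, of transport 2 of 3 and of fatty acid synthesis 3 of 4 were lower. The median over the 33 members was -0.65, against -0.22 over all genes.

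Npc1 differed most, by -1.99 ± 0.26 (SE; limma adjusted p = 1.07e-06), then Hmgcs1 by -1.79 ± 0.36 (SE; limma adjusted p = 0.000234). The differences of the effect were -1.46 ± 0.31 (SE; limma adjusted p = 0.000446) for Msmo1, -1.32 ± 0.25 (SE; limma adjusted p = 0.000139) for Mvd and -1.23 ± 0.25 (SE; limma adjusted p = 0.000289) for Cyp51. Sc5d differed by -0.93 ± 0.22 (SE; limma adjusted p = 0.00132). Each of these 6 genes was called under all 27 alternatives, as was Ebp (-0.77). The calls of Npc2, Acaca and Hsd17b7 were lost under 19, 18 and 13 of the 27. Under quantile normalization 13 members were lower and 3 higher, under median-ratio rescaling 13 and 4, and under equal totals 14 and 0. These fits called 6165, 6000 and 5428 of all genes, against 6249 in the main fit.

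Without the 5 steep libraries 11 members differed between tissues, 9 lower and 2 higher in spleen, beside 17.8% and 14.3% of all genes. Hmgcs1 then differed by -1.09 ± 0.29 (limma adjusted p = 0.00497), Msmo1 by -1.64 ± 0.36 (limma adjusted p = 0.00102) and Npc1 by -1.52 ± 0.22 (limma adjusted p = 1.87e-05). Mvk, Mvd, Cyp51, Ebp, Sc5d and Npc2 were the other 6 that were lower, and Acat2 and Mbtps1 the 2 that were higher. The differences of Fdps, Hsd17b7, Srebf2, Acly, Acaca, Fasn and Lbr, called with all libraries, were not called without the steep ones.

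Exons of 13 members overlap exons of other genes, and the sources used here do not say how reads in these stretches were assigned. The partners include Akap9 for Cyp51 and Ctsb for Fdft1, both on the opposite strand, and Vps51 for Tm7sf2 on the same strand. The values of these members, Hmgcs1, Idi1, Fdps, Lss, Lbr, Srebf1, Scap, Mbtps2, Npc1 and Acss2 among them, are uncertain to that extent.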

How the data were processed

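Poly(A) RNA from 19 bone marrow and 18 spleen libraries was sequenced from stranded TruSeq mRNA libraries, per the labels' protocols. The deposited table holds the authors' signal per gene, an abundance scaled per library, with library sums of 657918 to 2652290. The submitters' processing notes name kallisto 0.46.1, sleuth and GRCm38, with no role given, and the sources used here do not state the exact scaling. Low values were multiples of a step set by transcript length: with an assumed fragment of 200 bases, 61.8% to 77.7% of them were within 0.1 of whole reads, which gave the depth estimates. These are estimates, so no count test was run.

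Genes that reached 1 in 3 or more marrow libraries, or in 2 or more for spleen and for both tissues together, were tested as log2(value + 1) with limma 3.58.1 in R 4.3.3 (trended, robust), with Benjamini-Hochberg adjustment over all genes tested. Each tissue was 1 fit over its 5 groups, and the comparisons between tissues were 1 fit over all 37 libraries. The scripts were tested on simulated data. Labels do not say whether replicates are separate animals; p-values measure the spread between libraries.

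The rule for library values named, in comparisons with calls, up to 6 called members with the smallest p, and always Srebf2, Srebf1, Insig1, Insig2, Hmgcs1, Sqle, Npc1 and Fasn; other members with library values were added after their values were seen. The members and lists were chosen with earlier results of these data known. Alternatives were quantile normalization, equal totals, median-ratio rescaling, a pseudocount of 0.1, no filter, only the groups compared, each library left out and a replicate block. Leaving out the 5 spleen libraries with a length slope below -0.2, and removing each library's length trend, were chosen after seeing the data.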

Additional observations from a re-analysis of the deposited data

Results flagged for a closer look

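In groups of 4 to 10 libraries, 11 of 198 sets of member values (5.56%) held a library far from the others, and chance gives about 1 in 20. Of these, 7 lay in marrow after 10 defeats. Library D6 was the highest there for Hmgcs1 (21.8, the others 12.7 to 14.4), Fdps (107, the others 37.5 to 51.4) and Sc5d (16.9, the others 10.1 to 10.3). In the same group D5 was highest for Scap at 10.4, D9 was highest for Npc2 at 102 and lowest for Fasn at 5.95, and D10 was lowest for Acaca at 2.63. In rested marrow D1 was highest for Fdps at 46.1 and for Dhcr7 at 7.54. Pmvk was lowest in D17 after 1 defeat in marrow at 9.87, and Ebp was lowest in D9 after 10 defeats in spleen at 14.1.

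The effect of 10 defeats differed between spleen and marrow, by a limma interaction test, for 16 members. In log2 units, spleen minus marrow, the early enzymes differed by -1.79 for Hmgcs1, -0.65 for Mvk, -1.32 for Mvd and -1.39 for Fdps. The later enzymes differed by -1.23 for Cyp51, 1.27 for Lbr, -1.46 for Msmo1, -0.77 for Hsd17b7, -0.77 for Ebp and -0.93 for Sc5d. Srebf2 differed by -1.56, Npc1 by -1.99 and Npc2 by -0.58. The fatty acid synthesis genes differed by -1.67 for Acly, -1.21 for Acaca and -1.34 for Fasn.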

How the results depend on the processing

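Of 194 recomputed counts of called members 171 stayed within 1.5 times the reported count, and of 1239 recomputed values of called members 1027 kept direction and call, 211 lost the call and 1 changed sign: Idi1 in spleen after 10 defeats was -0.14 with equal totals (limma adjusted p = 0.709). The cause of these changes was not tested unless named. Equal totals gave 2 called members in marrow after 4 defeats, 4 in rested marrow against 10 defeats and 0 in rested spleen against control. These fits called 1112, 3255 and 407 of all genes. With only the groups compared in the fit there were 3 in marrow after 4 defeats, 2 in spleen after 1 defeat and 14 between control tissues. Those fits called 2107, 1751 and 8222 of all genes. Quantile normalization gave 1 in spleen after 1 defeat, beside 319 of all genes. In rested spleen against control no filter gave 1 and removal of the length trend 1, beside 683 and 986 of all genes. Without the 5 steep spleen libraries, fits with fewer libraries gave 2 in spleen after 1 defeat, 2 after 10 defeats and 6 after rest. Those fits called 1753, 3243 and 2260 of all genes. Leaving out 1 library at a time gave 1 to 9 in marrow after 4 defeats, 8 to 14 after 10 defeats, 5 to 8 for rest against 10 defeats, 13 to 19 in spleen after 10 defeats, 1 to 2 for rested spleen against control, 0 to 3 against 10 defeats, 5 to 6 between control tissues and 13 to 19 for the difference between tissues; the lowest counts in marrow came without D12 after 4 defeats and without control C4 after 10. With the replicate number as a replicate block, 6 members differed between control tissues (4 higher, 2 lower) and 17 in the 10-defeat effect (1 higher, 16 lower); the block correlation was 0.0113. The numbers were not taken to pair libraries: deviations of 15 same-numbered pairs correlated at -0.20 to 0.35, 5 of them above 0.1, and 8 pairs correlated best with their own number. Differences in the spleen groups of 2 libraries are the least precise.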
